A study of Mus musculus with 24 samples.

Results

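The comparison asked which genes the R6/2 genotype moved by a different amount in striatum than in cortex at 12 weeks of age. It rested on 12 of the 24 libraries of the series, all of those taken at 12 weeks, in 4 groups of 3: R6/2 cortex, wild-type cortex, R6/2 striatum and wild-type striatum. R6/2 mice carry the first exon of human huntingtin with an expanded CAG repeat under the human promoter, and the line is a common model of Huntington's disease. The controls were wild-type littermates, all mice had the same mixed C57Bl/6 / CBA background, and the labels name no treatment. RNA was selected on its poly(A) tail from the whole dissected tissue. The quantity given for each gene is the log2 fold change of R6/2 over wild type in striatum minus the same fold change in cortex, called the interaction below. It is positive where the R6/2 effect was higher in striatum and negative where it was lower there. Of 18669 genes in the files, 11768 had a mean level of at least 0.5 RPKM (reads per length of gene and per size of library) over the 12 libraries and were tested with edgeR. A gene was called at a Benjamini-Hochberg adjusted p under 0.05 over all of them.

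Striatum consists largely of GABAergic spiny projection neurons. Those of the direct pathway carry dopamine D1 receptors, those of the indirect pathway carry D2 receptors, and both signal through cyclic AMP. They are the neurons most affected in Huntington's disease, and the pyramidal neurons of cortex that project onto them are affected as well. In a dissected block of tissue, fewer cells of a type and less RNA per cell cannot be told apart.

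The test called 33 genes, 0.28% of the 11768: 23 with a higher R6/2 effect in striatum (0.195%) and 10 with a lower one (0.085%). An unadjusted p under 0.05 was reached by 1162 genes, where 588 are expected by chance alone. The 10 lower genes were led by Adcy5, Strn and Chrm4, which serve cyclic AMP, calmodulin and acetylcholine signalling in striatal neurons. The 23 higher genes were led by Tafa1, Grik1 and Gng4, a secreted protein, a kainate receptor subunit and a G protein subunit. Most calls combined a larger genotype effect in striatum with a smaller one of either sign in cortex, as the plot of both effects shows. Within the same fit, the striatum effect itself passed for 22 of the 23 higher genes, all upward, and for 9 of the 10 lower genes, all downward. Over all genes tested, 8.6% passed in striatum (3.02% upward, 5.58% downward). The cortex effect passed for none of the 33 in this fit, in which 19 of all genes passed in cortex (0.161%: 0.017% upward, 0.144% downward). At an unadjusted p under 0.05, 946 genes differed in cortex. How many genes were called depended on the method and the libraries: DESeq2 called 187 genes (58.8% of them higher, against 69.7% here), a fit with the GC and length trend removed 126 (56.3% higher), and limma on log2(RPKM + 0.5) 1, Tafa1, while leaving out 1 library gave 1 to 79 calls. All 33 kept their direction in each of these, and Tafa1 was called in 12 of 12 fits with a library left out. These fits reuse the libraries from which the 33 were picked, so a kept direction is no independent support. A fit over all 24 libraries called 0 genes. Transcripts of the higher genes had a median GC content of 47.7% and those of the lower genes 53.7%, beside 49.8% over all genes tested. Libraries of a group differed in GC trend. The rank correlation of GC with log2 level minus the mean of the (other) wild-type libraries was 0.55, -0.51 and 0.19 in wild-type striatum. It was -0.54, -0.17 and 0.03 in R6/2 striatum, 0.43, -0.48 and 0.08 in wild-type cortex and -0.23, 0.01 and 0.02 in R6/2 cortex. All 33 were called with the GC and length trend removed, in a fit on the same counts.

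**Figure D1:**
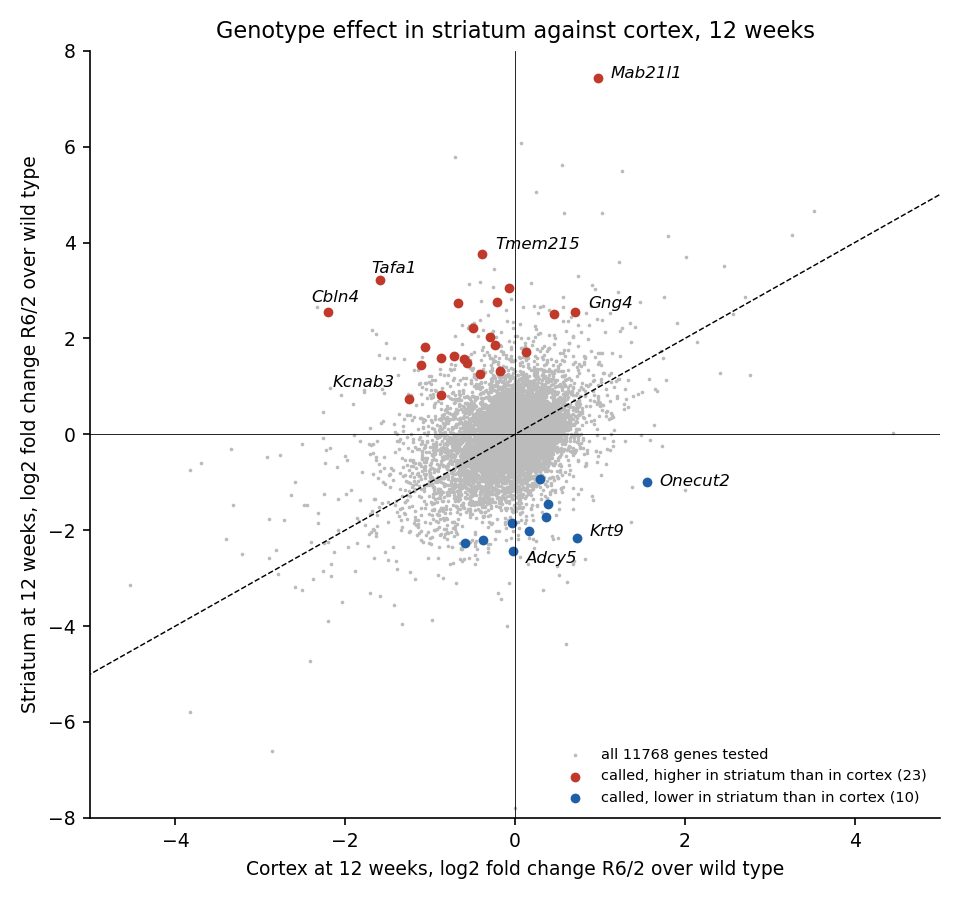
Log2 fold change of R6/2 over wild type at 12 weeks for each gene, in cortex (x axis) and striatum (y axis), with the 23 higher calls in red, the 10 lower calls in blue, the other genes tested in grey and equal effects on the dashed line. The called genes lie off the dashed line, and most lie further from 0 on the striatum axis than on the cortex axis. Tafa1 and Cbln4 lie furthest to the left of them and Onecut2 furthest to the right, and 4 grey genes fall outside the axes.

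Adcy5 encodes adenylyl cyclase 5, the main source of cyclic AMP in spiny projection neurons. Its level was 197, 122 and 191 RPKM in the wild-type striatal libraries and 21.8, 34.7 and 47.5 RPKM in the R6/2 striatal ones. The striatal groups did not overlap, and the R6/2 libraries overlapped both cortical groups. In cortex the levels were 30.0, 19.9 and 28.7 RPKM in wild type and 34.1, 25.3 and 25.2 RPKM in R6/2, and these groups overlapped. The fitted change was -2.43 on the log2 scale in striatum (a 5.38-fold decrease) and -0.02 in cortex, which gave an interaction of -2.40 (SE 0.34, edgeR adjusted p = 0.0226).

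Strn encodes striatin, a calmodulin-binding scaffold of a phosphatase complex, named for its abundance in striatum. It lay at 35.5, 33.7 and 39.5 RPKM in wild-type striatum and at 9.56, 11.5 and 12.5 RPKM in R6/2 striatum, with no overlap. Every R6/2 striatal library was within the range that the cortical libraries spanned or just below it, since wild-type cortex gave 11.9, 9.65 and 11.5 RPKM and R6/2 cortex 14.2, 10.8 and 10.5 RPKM. The interaction was -1.81 (SE 0.27, edgeR adjusted p = 0.0244).

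Chrm4 encodes the M4 muscarinic receptor, which opposes cyclic AMP signalling in direct pathway neurons. Wild-type striatum held 31.2, 17.1 and 29.0 RPKM and R6/2 striatum 3.97, 6.62 and 7.5 RPKM. The groups did not overlap, and in R6/2 the striatal libraries lay below all of the cortical ones, which gave 11.2, 8.22 and 10.3 RPKM in wild type and 7.76, 8.59 and 8.75 RPKM in R6/2. The interaction was -1.82 (SE 0.30, edgeR adjusted p = 0.0297).

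Arpp21 encodes a phosphoprotein regulated by cyclic AMP that is abundant in spiny projection neurons. It was the most abundant of the called genes per length, with 650, 683 and 767 RPKM in wild-type striatum and 118, 127 and 252 RPKM in R6/2 striatum. Replicate 3 of R6/2 striatum was the highest of its group and still far below the wild-type libraries. In cortex the R6/2 libraries were lower as well, at 106, 104 and 104 RPKM against 159, 125 and 137 RPKM in wild type, without overlap. The interaction of -1.68 (SE 0.33, edgeR adjusted p = 0.0498) was among the calls nearest to the threshold.

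Tbc1d8 and Tbc1d16 encode proteins with a TBC domain, which switches off Rab GTPases of membrane traffic. Tbc1d8 lay at 9.85, 8.91 and 9.44 RPKM in wild-type striatum, 1.51, 2.83 and 3.48 in R6/2 striatum, 2.79, 1.98 and 2.76 in wild-type cortex and 3.63, 3.10 and 2.55 in R6/2 cortex. Its striatal groups did not overlap, its cortical groups did, and the interaction was -2.18 (SE 0.36, edgeR adjusted p = 0.0297). Tbc1d16 was lower in R6/2 striatum and higher in R6/2 cortex: its RPKM went from 9.42, 7.76 and 6.55 to 2.63, 3.39 and 3.61 in striatum and from 4.83, 3.66 and 4.51 to 7.04, 6.16 and 5.62 in cortex. Neither pair of groups overlapped, although the cortex effect of 0.39 did not pass (adjusted p = 0.728), and the interaction was -1.84 (SE 0.30, edgeR adjusted p = 0.0297).

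Slc22a3 encodes the organic cation transporter OCT3, which takes up monoamines. Its RPKM went from 3.82, 2.39 and 4.21 in wild-type striatum to 1.00, 1.26 and 1.13 in R6/2 striatum, while cortex held 0.640, 0.483 and 0.510 in wild type and 0.866, 0.817 and 0.646 in R6/2. The groups were apart in both tissues, and R6/2 striatum stayed above every cortical library. The interaction was -2.10 (SE 0.40, edgeR adjusted p = 0.0408). Krt9, a keratin best known from thick skin, was read in every library, at 37.3, 14.0 and 34.7 RPKM in wild-type striatum, 5.00, 6.61 and 8.86 in R6/2 striatum, 1.83, 2.90 and 2.98 in wild-type cortex and 2.32, 7.02 and 5.08 in R6/2 cortex. Wild-type replicate 2 was low, at less than the other wild-type striatal libraries but above every R6/2 one, and the interaction was -2.89 (SE 0.52, edgeR adjusted p = 0.0377). Calcoco1, a coiled-coil coactivator and autophagy receptor, had the smallest interaction of the 33, -1.24 (SE 0.23, edgeR adjusted p = 0.0377). Its RPKM went from 37.3, 28.4 and 35.0 to 16.9, 18.2 and 22.5 in striatum and from 21.7, 17.7 and 20.9 to 24.8, 28.2 and 29.6 in cortex, with no overlap in either tissue.

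Onecut2, a homeodomain transcription factor, was called although neither of its tissue effects passed in the joint fit. Its RPKM went from 2.07, 3.46 and 2.81 to 1.62, 1.63 and 1.48 in striatum and from 0.402, 0.523 and 0.731 to 2.47, 1.23 and 1.63 in cortex. Wild-type striatum stood above wild-type cortex in every library, and the R6/2 groups of both tissues overlapped each other. The changes of -0.99 in striatum (adjusted p = 0.0732) and 1.55 in cortex (adjusted p = 0.0932) gave an interaction of -2.54 (SE 0.46, edgeR adjusted p = 0.0377).

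**Figure D2:**
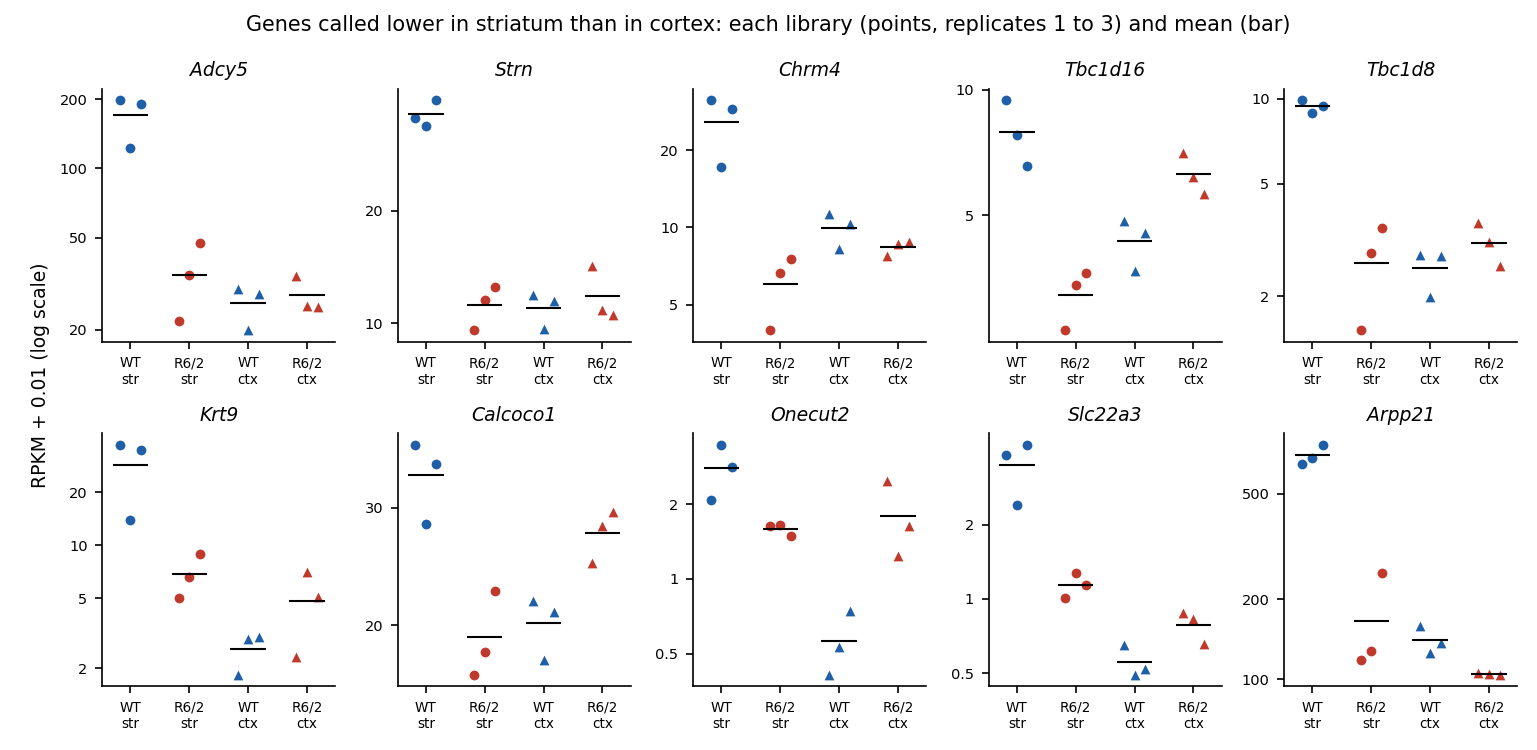
Level in RPKM plus 0.01 on a log axis of the 10 lower genes in each 12-week library (striatum as circles, cortex as triangles, wild type blue, R6/2 red, the bar at the group mean; str is striatum, ctx cortex). In every panel wild-type striatum has the highest group mean and the R6/2 striatal libraries lie below all of them.

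Among the higher genes, Tafa1 gave the strongest call. It encodes a small secreted protein of the brain related to chemokines. Wild-type striatum held 0.586, 0.179 and 0.485 RPKM and R6/2 striatum 3.69, 4.46 and 4.21 RPKM. Wild-type cortex held 11.1, 10.1 and 7.80 RPKM and R6/2 cortex 5.01, 2.50 and 3.09 RPKM. Each pair of groups was apart, with R6/2 higher in striatum and lower in cortex, and the R6/2 striatal libraries lay inside the range of the R6/2 cortical ones. The change was 3.21 in striatum (a 9.24-fold increase) and -1.60 in cortex (a 3.02-fold decrease, adjusted p = 0.0694). Together they gave an interaction of 4.80 (SE 0.47, edgeR adjusted p = 0.000588).

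The promoters of Tafa1 and Adcy5 are shown because these genes gave the strongest call in each direction, and 1 of the 9 promoters of Arpp21 because it alone of them held a searched motif. They come from the RefSeq promoter table of GRCm38.p6 (250 bases before to 50 after the start, written 5′ to 3′ on the gene's strand). Capitals mark a match to CTA and TAG parted by any 4 bases, which is not read as the site of a named factor.
Tafa1, chr6:96112904-96113203, plus strand: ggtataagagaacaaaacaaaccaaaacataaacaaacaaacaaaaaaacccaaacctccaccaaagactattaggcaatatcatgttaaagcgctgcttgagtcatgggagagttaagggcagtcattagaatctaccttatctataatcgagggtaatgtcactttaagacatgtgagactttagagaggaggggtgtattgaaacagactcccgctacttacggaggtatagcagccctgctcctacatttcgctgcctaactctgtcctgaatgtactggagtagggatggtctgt
Adcy5, chr16:35154614-35154913, plus strand: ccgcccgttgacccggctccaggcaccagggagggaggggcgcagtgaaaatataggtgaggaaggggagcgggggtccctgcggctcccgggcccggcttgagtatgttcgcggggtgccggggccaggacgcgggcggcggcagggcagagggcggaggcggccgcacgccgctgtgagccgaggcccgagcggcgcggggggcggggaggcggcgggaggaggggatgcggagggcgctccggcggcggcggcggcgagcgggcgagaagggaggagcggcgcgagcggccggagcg
Arpp21, chr9:112185900-112186199, minus strand: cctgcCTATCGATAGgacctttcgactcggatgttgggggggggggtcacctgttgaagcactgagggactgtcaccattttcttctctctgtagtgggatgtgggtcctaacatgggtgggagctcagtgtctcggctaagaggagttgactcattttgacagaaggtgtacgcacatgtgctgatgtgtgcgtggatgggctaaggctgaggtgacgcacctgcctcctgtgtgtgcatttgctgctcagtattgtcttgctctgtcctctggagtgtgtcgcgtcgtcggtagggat
GC content was 42% for the Tafa1 promoter and 79% for the Adcy5 promoter, and 54.67% for the Arpp21 promoter shown. The table held promoters for 25 of the 33 called genes, 27 sequences for 17 higher genes and 17 for 8 lower genes, 9 of the latter from Arpp21. With the promoters of a gene averaged, the median GC over genes was 55.7% for the higher, 63.8% for the lower and 61.2% for all genes tested. The cyclic AMP response element TGACGTCA was in none of these 44 sequences (2.98% of promoters of tested genes), and the EGR site GCGNGGGCG in none (10.9%), on either strand. The interferon response core, GAAA repeated with any 2 bases between, was in 1, of Kcnj16 (2.78% of promoters of tested genes). CTA and TAG parted by any 4 bases were in 1, the Arpp21 promoter shown (3.07%), and TATAAA in 2, of Kcnj16 and Vwc2l (6.95%). These windows are short, and a missing match says only that the letters are not in them.

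Grik1, Camk2d and Syt17 serve excitatory transmission and calcium signalling. Grik1 encodes the GluK1 kainate receptor subunit. It lay at 0.981, 0.367 and 0.746 RPKM in wild-type striatum and 7.44, 4.03 and 3.01 RPKM in R6/2 striatum. The striatal groups were apart, with R6/2 replicate 1 the highest. Cortex held 4.02, 3.25 and 4.70 RPKM in wild type and 3.08, 2.50 and 2.70 RPKM in R6/2, and the interaction was 3.40 (SE 0.51, edgeR adjusted p = 0.0244). Camk2d, the delta isoform of calcium/calmodulin kinase II, went from 6.43, 4.55 and 5.27 RPKM to 37.8, 37.1 and 25.6 RPKM in striatum and from 21.6, 15.7 and 16.9 to 37.9, 21.9 and 21.8 RPKM in cortex. Both tissues were higher in R6/2 without overlap, striatum by more, and R6/2 striatum reached the level of R6/2 cortex. Its interaction was 2.06 (SE 0.37, edgeR adjusted p = 0.0377). Syt17, of the synaptotagmin family of vesicle proteins, went from 1.14, 1.12 and 0.711 to 3.69, 4.54 and 5.19 RPKM in striatum and stayed below cortex, which held 16.5, 8.18 and 14.9 RPKM in wild type and 13.9, 11.2 and 10.2 in R6/2 (interaction 2.32, SE 0.41, edgeR adjusted p = 0.0377).

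Gng4, Rasgrf2 and Ccnd1 act in signalling inside the cell. Gng4, a gamma subunit of heterotrimeric G proteins, lay at 5.74, 4.70 and 3.87 RPKM in wild-type striatum, 24.7, 36.5 and 30.7 in R6/2 striatum, 18.9, 13.6 and 17.9 in wild-type cortex and 29.5, 34.9 and 26 in R6/2 cortex. It rose in striatum by 2.54 on the log2 scale, was also higher in R6/2 cortex without overlap (0.71, adjusted p = 0.209), and had an interaction of 1.83 (SE 0.29, edgeR adjusted p = 0.0297). Rasgrf2, a calcium-regulated exchange factor for Ras known as a marker of upper cortical layers, lay at 1.57, 0.908 and 1.10 RPKM in wild-type striatum and 1.95, 5.31 and 4.75 in R6/2 striatum. R6/2 replicate 1 was close to the highest wild-type library. In cortex it was lower in every R6/2 library, 13.4, 11.2 and 11.9 RPKM against 21.1, 20.6 and 17.9, and the interaction was 2.47 (SE 0.40, edgeR adjusted p = 0.0297). Ccnd1, cyclin D1, was 1.77-fold higher in R6/2 striatum (edgeR adjusted p = 0.0215) and 1.83-fold lower in R6/2 cortex (adjusted p = 0.106). Its RPKM went from 8.28, 5.46 and 6.11 to 11.2, 14.9 and 12.1 in striatum and from 11.0, 10.0 and 13.3 to 5.57, 8.79 and 6.36 in cortex, each without overlap (interaction 1.70, SE 0.29, edgeR adjusted p = 0.0332).

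Cbln4 and Ndst3 act outside the cell or in making its coat. Cbln4, a cerebellin that organises synapses, had a wide spread. Its RPKM was 1.32, 0.562 and 0.880 in wild-type striatum and 11.5, 3.32 and 1.73 in R6/2 striatum, where replicate 1 stood far above replicates 2 and 3. In cortex it went the other way, from 3.23, 6.59 and 3.88 to 1.54, 0.957 and 0.856, and neither pair of groups overlapped. The interaction was 4.76 (SE 0.85, edgeR adjusted p = 0.0377), and it was 3.48 (adjusted p = 0.0375) without replicate 1 of R6/2 striatum. Ndst3, an enzyme of heparan sulfate synthesis, went from 0.831, 1.05 and 0.683 to 2.98, 2.42 and 3.48 RPKM in striatum, and cortex held 6.15, 2.96 and 5.98 RPKM in wild type and 3.21, 3.71 and 3.07 in R6/2 with overlap (interaction 2.35, SE 0.41, edgeR adjusted p = 0.0377).

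Tmem200a and Tmem215 encode membrane proteins. Tmem200a lay at 0.846, 0.383 and 0.309 RPKM in wild-type striatum and 5.13, 3.40 and 2.43 in R6/2 striatum, the latter around the cortical level of 3.32, 3.53 and 3.63 in wild type and 3.50, 3.17 and 3.33 in R6/2. The interaction was 2.98 (SE 0.49, edgeR adjusted p = 0.0297). Tmem215 went from 0.200, 0.0437 and 0.0254 to 1.95, 1.19 and 0.689 RPKM in striatum beside 2.56, 3.22 and 2.54 in wild-type and 2.36, 2.48 and 2.26 in R6/2 cortex (interaction 4.15, SE 0.74, edgeR adjusted p = 0.0377). In both genes the R6/2 striatal libraries kept the same order, with replicate 1 highest and replicate 3 lowest.

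Mab21l1, a developmental gene known for its role in the eye, was near the limit of detection in wild-type striatum. The 3 wild-type striatal libraries held 2 counts of it between them, against 487 in R6/2 striatum, 56 in wild-type cortex and 218 in R6/2 cortex. Relative to all counts in genes, R6/2 striatum exceeded wild type 168-fold, with an exact 95% interval from counting error of 46.1 to 1387, and R6/2 cortex exceeded wild type 2.40-fold (1.78 to 3.28). The fitted interaction of 6.46 (SE 1.13, edgeR adjusted p = 0.0377) rests on those 2 counts, so its size is poorly known. R6/2 striatum, at 2.03, 1.74 and 0.685 RPKM, was also above every cortical library.

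Tshz2, a zinc finger transcription factor of deep cortical layers, and Kcnip1, a subunit of A-type potassium channels, were the other called members of the gene lists. Tshz2 went from 2.88, 1.55 and 2.68 to 8.48, 7.69 and 4.4 RPKM in striatum and from 7.85, 4.94 and 13.4 to 4.29, 3.52 and 5.45 in cortex, where the groups overlapped (interaction 2.56, SE 0.47, edgeR adjusted p = 0.0377). Kcnip1 went from 6.38, 3.88 and 5.05 to 21.7, 12.7 and 11.4 RPKM in striatum and from 10.5, 12.0 and 14.1 to 8.12, 10.2 and 9.33 in cortex (interaction 2.06, SE 0.39, edgeR adjusted p = 0.0416).

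**Figure D3:**
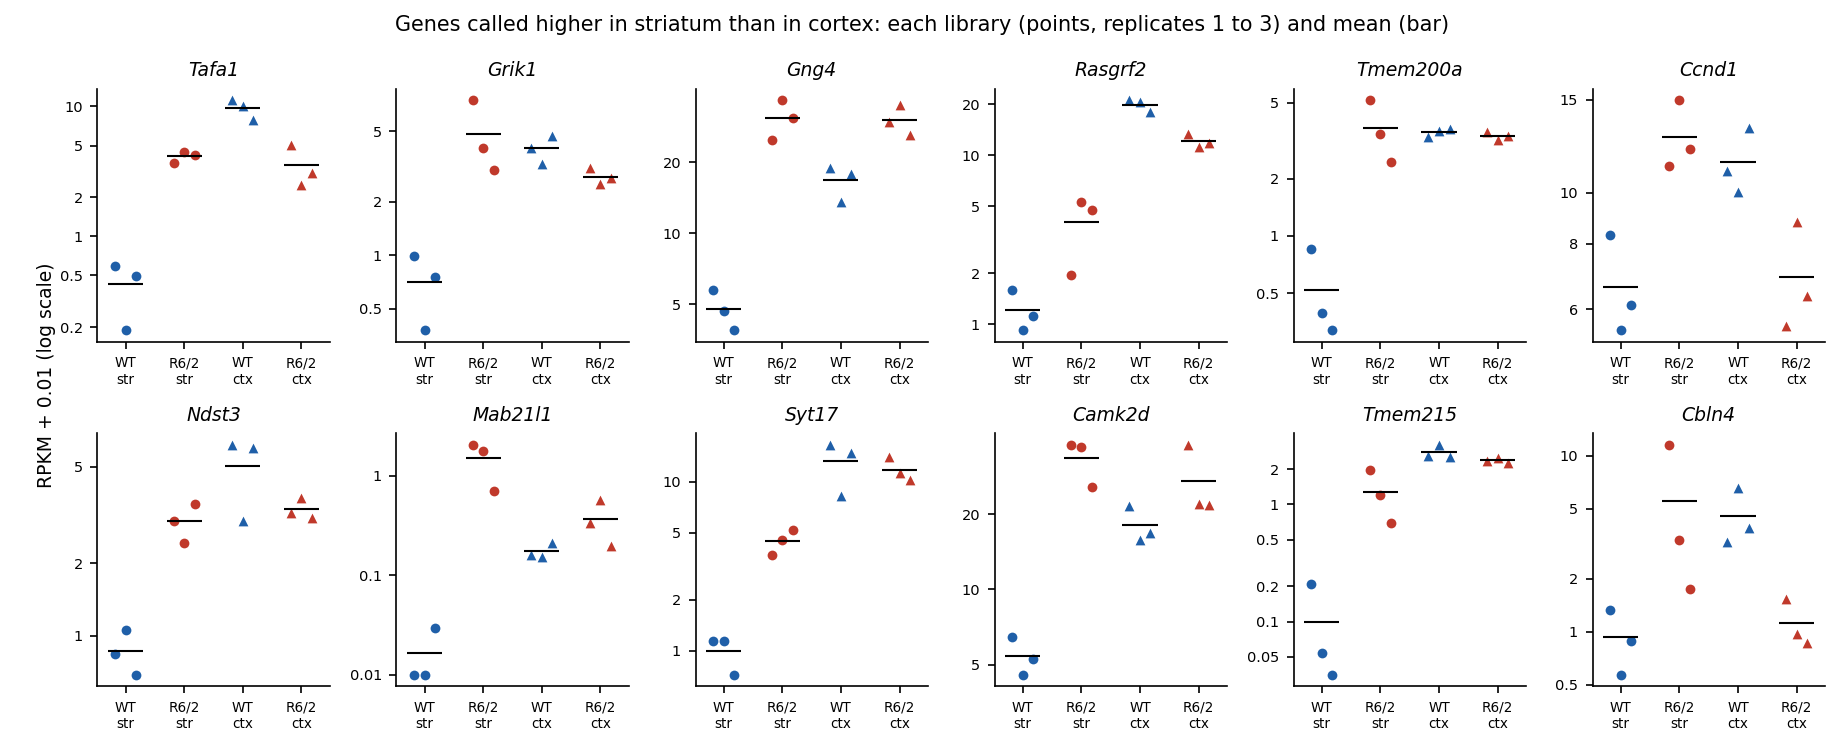
Level in RPKM plus 0.01 on a log axis of 12 of the higher genes in each 12-week library (striatum as circles, cortex as triangles, wild type blue, R6/2 red, the bar at the group mean; str is striatum, ctx cortex). In every panel wild-type striatum has the lowest group mean and the R6/2 striatal libraries lie above it.

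The remaining 9 higher genes were named after their values were seen. They were the inward rectifier subunit Kcnj16, the dendrite regulator Btbd3, Vwc2l, the oxytocin receptor Oxtr, the kinase anchor Sphkap, the potassium channel beta subunit Kcnab3, the sodium leak channel subunit Fam155a, the semaphorin receptor Nrp2 and the protocadherin Pcdh20. Their interactions ran from 1.5 (Fam155a) to 3.11 (Vwc2l). Kcnj16 rose from 3.17, 1.52 and 2.14 RPKM to 14.0, 6.32 and 4.82 in striatum, and in cortex it went from 6.06, 7.15 and 10.1 to 4.58, 3.57 and 4.22. Oxtr went from 0.640, 0.275 and 0.296 to 1.38, 1.92 and 2.76 RPKM in striatum, with cortex at 1.93, 1.33 and 1.73 in wild type and 1.66, 1.37 and 0.825 in R6/2. Kcnab3 was carried mainly by cortex, where it was lower in R6/2 in every library (7.08, 11.6 and 10.7 RPKM against 21.3, 22.3 and 18.1), while its striatal groups overlapped. The last genes inside the threshold were Arpp21, Nrp2 and Pcdh20 (adjusted p = 0.0498 each). The first outside were the BMP antagonist Nog (interaction 2.13, adjusted p = 0.0524) and the lipase Pnpla3 (1.70, adjusted p = 0.0526).

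The tissue effects had opposite signs in 19 of the 23 higher and 6 of the 10 lower genes, against 39.6% of all genes tested. Because the interaction is the difference of these effects, genes with opposite signs are more easily called, so these shares are a description. The striatum effect was the larger in size in 30 of the 33, beside 66.2% of all genes tested. The R6/2 and wild-type libraries did not overlap in striatum for 32 of the 33 and in cortex for 18 of the 33, where 23.2% and 27.6% of all genes tested did not overlap. When each tissue was fitted on its own 6 libraries, striatum passed for 27 of the 33 and cortex for 9: Tafa1, Gng4, Rasgrf2, Ccnd1, Cbln4, Kcnj16, Kcnab3, Onecut2 and Arpp21. In those separate fits, Tafa1 and Kcnj16 were the only genes of all 11768 that passed in both tissues with opposite signs. Tafa1 had 3.22 in striatum and -1.59 in cortex (adjusted p = 0.00618 in each, edgeR), and Kcnj16 had 1.83 in striatum and -1.05 in cortex (adjusted p = 0.0476 and 0.0177). The spread between replicates differed by tissue, with a biological coefficient of variation of 35.8% in striatum, 19.8% in cortex and 28.5% in the joint fit. Separate fits called 299 genes in striatum and 490 in cortex, the joint fit 1012 and 19.

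In wild type, the 10 lower genes were striatal in preference and the 23 higher ones cortical. The 8-week wild-type libraries, which the 12-week comparison did not use, gave a test of this. All 10 lower genes lay above cortex there, and 6 of them passed (edgeR, adjusted p under 0.05), where 1.72% of all genes tested did so. All 22 higher genes with a value lay below cortex, and 4 of them passed, beside 1.73% of all genes tested. Over all genes with a value, 51.5% lay above cortex. Onecut2 had the largest striatal preference of the lower genes (log2 3.03, SE 0.36, adjusted p = 0.00531), followed by Adcy5 (2.66, SE 0.22, adjusted p = 0.00205). Tafa1 had the largest cortical preference of the higher genes (-3.37, SE 0.48, adjusted p = 0.0113). At 12 weeks the distance between the tissues, as the ratio of group mean RPKM, was smaller in R6/2 than in wild type for 31 of the 33, where it was so for 43.8% of all genes, and the order of the tissues changed for 22. That count shares its libraries with the calls and supports nothing by itself.

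The interaction leaned the same way over the genes with a strong tissue preference. Of the 128 genes called and at least 4-fold higher in wild-type striatum at 8 weeks (1.12% of 11479 tested there), 114 were tested at 12 weeks. Of these, 94 had an interaction below 0, with a median of -1.12, and 3 were called (Tbc1d8, Adcy5 and Onecut2). In striatum 60 of the 114 fell and none rose, where 5.58% of all genes tested fell and 3.02% rose. In cortex 3 fell (0.144% of all genes did). Of the 70 genes at least 4-fold higher in wild-type cortex (0.61%), 68 were tested at 12 weeks, 54 had an interaction above 0, the median was 0.62 and Tafa1 was called. As a set these did not rise in striatum, where 3 of the 68 rose and 1 fell and the median genotype effect was -0.09. In cortex none passed and the median effect was -0.67. Over all 11768 genes the median interaction was 0.00, with 5937 above and 5831 below 0. Leaving out each library in turn kept the median interaction between -1.21 and -0.78 for the striatal set. For the cortical set it was between 0.36 (without wild-type striatum replicate 3) and 1.22 (without wild-type striatum replicate 1).

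**Figure D4:**
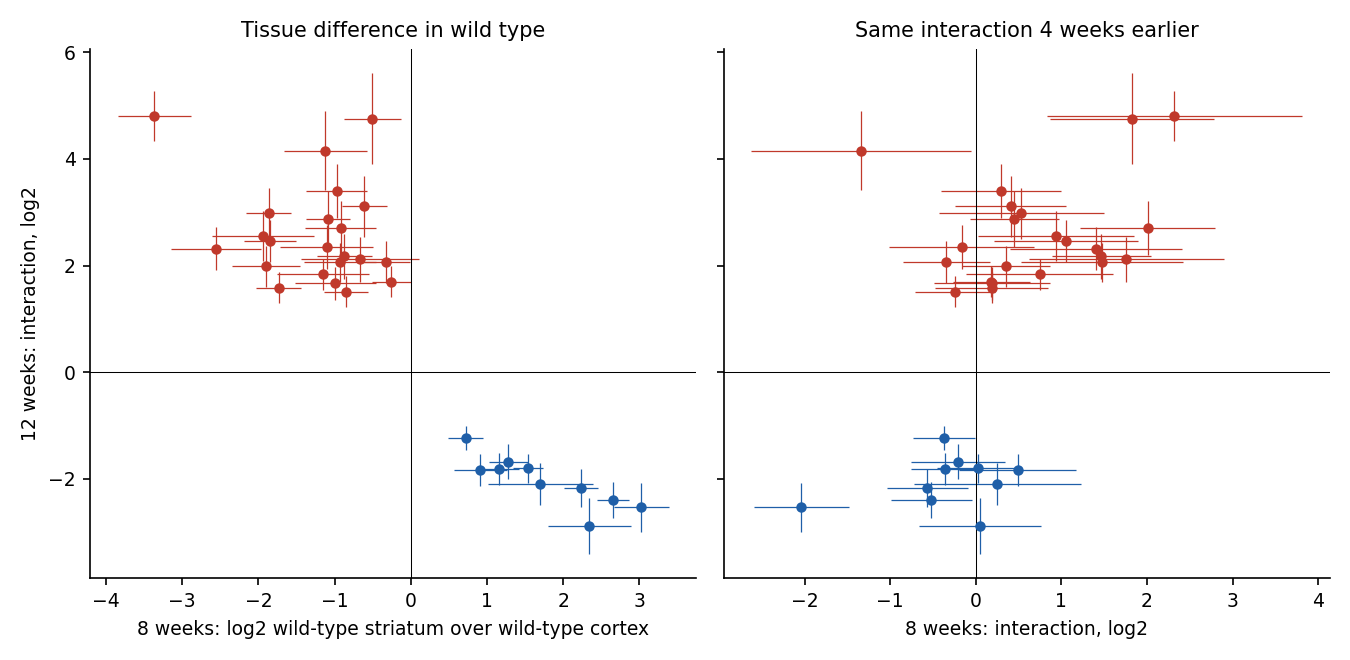
Interaction at 12 weeks (y axis, log2) against the wild-type striatum over cortex difference at 8 weeks (left, log2) and against the interaction at 8 weeks (right, log2) for the called genes with a value, higher calls in red and lower calls in blue, with standard errors as bars. On the left the colours fall on opposite sides of 0, and on the right both colours spread across 0.

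At 8 weeks the same contrast called none of 11514 genes (0.0%) in the other 12 libraries, with 432 genes at an unadjusted p under 0.05, where chance gives 576. DESeq2 also called none (560 at an unadjusted p under 0.05). Of the called genes with a value at 8 weeks, 18 of 22 higher genes were above 0 and 6 of 10 lower genes below 0, while 5450 of all genes with a value were above and 5963 below. Tafa1 was at 2.32 (SE 1.49), Onecut2 at -2.04 (SE 0.56), Adcy5 at -0.52 (SE 0.47) and Strn at 0.03 (SE 0.48). The change of the interaction between the ages was tested in all 24 libraries, and edgeR called none of 11659 genes (0.0%, 626 at an unadjusted p under 0.05 where chance gives 583), while DESeq2 called 2. An interaction called at 12 weeks and missed at 8 weeks is therefore not shown to differ between the ages for any gene by edgeR.

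Of the lists of genes chosen for this tissue and model, the markers shared by both kinds of spiny projection neuron stood lowest among the neuronal ones. Of 35 tested, 34 had an interaction below 0, with a median of -1.28, and 2 were called (Adcy5 and Arpp21). In striatum 30 of the 35 fell (5.58% of all genes did), and in cortex 2 did, Scn4b and Arpp19. Scn4b, a sodium channel beta subunit, went from 440, 287 and 467 RPKM to 15.2, 23.6 and 49.2 in striatum and from 27.5, 25.7 and 25.2 to 8.11, 6.05 and 4.62 in cortex. It fell in both tissues without overlap, by 14.9-fold and 4.59-fold, and its interaction of -1.70 did not pass (adjusted p = 0.166). Pde10a, the striatal phosphodiesterase, went from 124, 134 and 156 to 15.5, 22.3 and 33.9 RPKM in striatum and gave -2.23 (SE 0.47, edgeR adjusted p = 0.0789). Ppp1r1b, which encodes DARPP-32, fell in striatum from 1552, 481 and 1723 to 84.9, 181.1 and 391 RPKM and gave an interaction of -1.13 (SE 0.65, adjusted p = 0.596), with cortex at -1.5. The list's median stayed between -1.68 and -1.11 when any library was left out, and 0 to 9 of its members were called.

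Markers of either pathway alone also lay low. Of 10 direct pathway markers 8 were below 0 (median -1.0), Chrm4 was called and 3 fell in striatum, where 5.58% of all genes fell. Drd1, the D1 receptor, went from 69.7, 83.8 and 107 to 24.3, 20.2 and 34.1 RPKM in striatum, fell there (-1.88 on the log2 scale) and gave an interaction of -1.75 (SE 0.50, edgeR adjusted p = 0.207). Tac1, the substance P precursor, was at -0.36 (SE 0.48), with overlapping groups in both tissues. All 7 tested indirect pathway markers were below 0 (median -1.24), none was called and 6 fell in striatum. Among them Drd2 went from 66.9, 23.5 and 58.2 to 6.91, 10.0 and 16.9 RPKM in striatum (-1.71, SE 0.84, adjusted p = 0.534). Adora2a, an adenosine receptor, gave -1.96 (SE 0.73, adjusted p = 0.368), and Penk, the enkephalin precursor, -1.24 (SE 0.49, adjusted p = 0.403). Without R6/2 cortex replicate 1 the median was -0.45 for the direct and -0.79 for the indirect pathway markers.

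Immediate early genes, which neurons switch on with activity, had medians below 0 in both tissues. Of 23 tested, 14 fell in striatum (5.58% of all genes did) and none passed in cortex, where the median was -0.94 beside -1.46 in striatum. The median interaction was -0.41 and none was called, and the median was -0.93 without R6/2 striatum replicate 3 and -0.18 without R6/2 striatum replicate 1. Arc, a synaptic regulator, was at -2.35 in striatum (adjusted p = 0.00321) and -1.97 in cortex (adjusted p = 0.0798), with an interaction of -0.39 (SE 0.55). Egr1 gave -0.88 (SE 0.36). Interferon response genes rose in striatum in 11 of 19 (3.02% of all genes did) and in cortex in 1, Ifit3 (0.017% of all genes did). Their medians were 1.47 and 1.11, with a median interaction of 0.23 (0.12 without wild-type cortex replicate 2, 0.55 without R6/2 striatum replicate 3). Ifit1 gave 2.34 (SE 0.91, adjusted p = 0.395) and Usp18 0.90 (SE 1.18), and neither was called.

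Transmitter systems differed in direction. Neuropeptide genes had the highest median interaction of the lists, 1.43, with 17 of 21 above 0 and none called. Their median was 0.73 in striatum, where Adcyap1 (PACAP) rose and Penk and Pdyn fell, and -0.92 in cortex, where none passed. Sst, somatostatin, was at 1.45 (SE 0.62, adjusted p = 0.46) and Npy at 0.46 (SE 0.54). GABA and glycine receptor genes had 13 of 17 above 0 (median 0.71). Glra2, a glycine receptor subunit, rose in striatum from 5.16, 2.93 and 3.78 to 19.2, 12.6 and 11.8 RPKM, and cortex held 3.96, 3.06 and 3.00 in wild type and 5.98, 4.10 and 4.52 in R6/2. Glutamate receptor genes went the other way, with 16 of 22 below 0 (median -0.63), and Grik1 was the exception that was called. Grm5, the metabotropic receptor mGluR5, went from 5.97, 7.87 and 5.78 to 1.90, 2.79 and 2.64 RPKM in striatum and gave -1.61 (SE 0.34, edgeR adjusted p = 0.0792). Of 43 calcium signalling genes, 20 fell and 1, Camk2d, rose in striatum, where 5.58% of all genes fell and 3.02% rose. The median interaction of these 43 was -0.32 (-0.54 without R6/2 striatum replicate 3). Camk2a, the alpha isoform, was at 0.25 (SE 0.40). In striatum Kcnip1 rose and 12 others of the 34 potassium channel genes tested fell (median interaction -0.33, and -0.09 without R6/2 striatum replicate 1).

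The series title names H3K4 methylation, a mark of active promoters. The 14 tested H3K4 methyltransferase genes and the 7 demethylase genes held no call, with median interactions of -0.18 (-0.02 without wild-type striatum replicate 2) and -0.40 (-0.26 without wild-type striatum replicate 1). Kdm5c, an H3K4 demethylase, was at 11.0, 7.74 and 8.33 RPKM in wild-type striatum, 5.73, 9.05 and 11.4 in R6/2 striatum, 12.1, 10.0 and 8.71 in wild-type cortex and 14.7, 15.9 and 15.0 in R6/2 cortex. Its cortical groups did not overlap, its striatal groups did, and the interaction was -0.61 (SE 0.30, edgeR adjusted p = 0.527). Bdnf gave 1.21 (SE 0.55, adjusted p = 0.49).

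**Figure D5:**
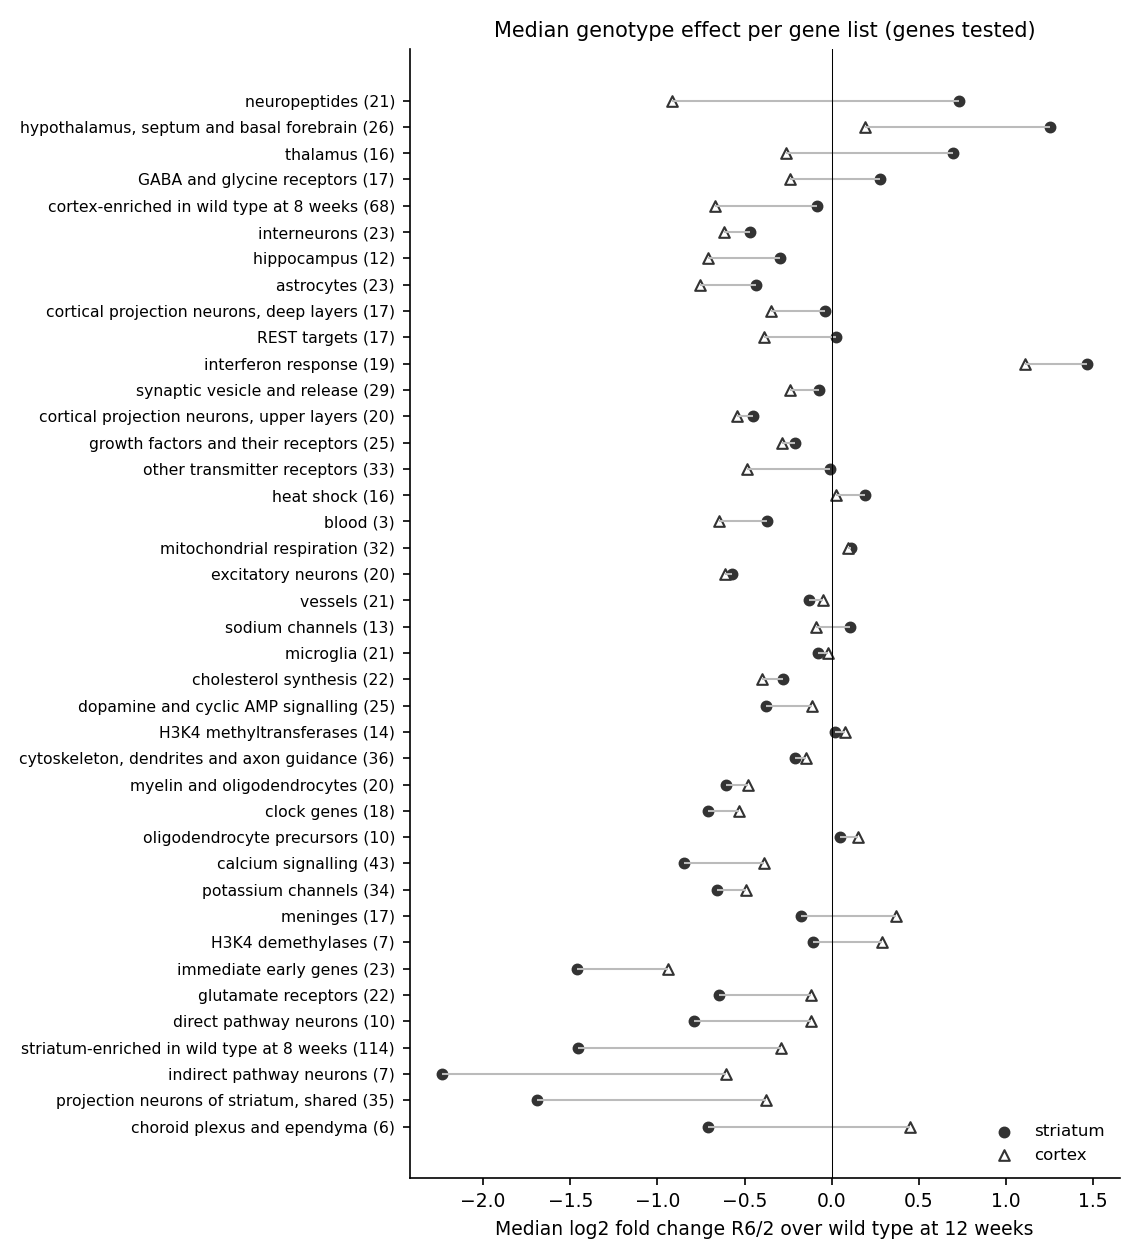
Median log2 fold change of R6/2 over wild type at 12 weeks per gene list, in striatum (filled circles) and cortex (open triangles), with the number of genes tested in brackets and the lists ordered by their median interaction. The striatal neuron lists lie further to the left in striatum than in cortex, the immediate early genes to the left in both tissues and the interferon genes to the right in both.

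Markers of other cells and regions also moved with the groups, in striatum above all. Excitatory cortical markers were present in the striatal libraries in uneven amounts: Slc17a7, the cortical glutamate transporter, was at 44.1, 13.6 and 4.51 RPKM in wild-type striatum and 0.248, 20.1 and 31.3 in R6/2 striatum, against 152, 122 and 102 in wild-type cortex. R6/2 striatum replicate 1 was the lowest of the 6 striatal libraries for 17 of 20 excitatory neuron markers. Over all 11768 genes tested it was the lowest of its own group in 6168, and the share among the 6 striatal libraries was not taken. The list summed to 1291 to 3120 RPKM in wild-type striatum, 516 to 1906 in R6/2 striatum, 2946 to 3149 in wild-type cortex and 1666 to 2145 in R6/2 cortex. Its largest members in wild-type striatum were Nrgn, Chn1 and Camk2a, at 1077, 744 and 408 RPKM in replicate 1, where Slc17a7 was at 44.1. The sum is therefore no measure of cortical cells in striatum. Across the excitatory list, 4 of 20 markers were below wild type in all R6/2 striatal libraries and none above, where 23.2% of all genes tested did not overlap in either direction. The 4 were Baiap2, Ngef, Itpka and Chn1, which are not particular to cortex here. Ngef was at 224, 123 and 230 RPKM in wild-type striatum and 131, 93.6 and 87.2 in wild-type cortex. For Slc17a7, Neurod6, Neurod2 and Emx1 the striatal groups overlapped. The part of cortical tissue in the called genes was not tested.

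Of 40 matched markers of hypothalamus, septum and basal forebrain, 13 were higher in all R6/2 than in all wild-type striatal libraries and none was lower in all, where 23.2% of all genes tested did not overlap in either direction. Of 26 tested, 24 had an interaction above 0 (median 1.07), 11 rose in striatum (3.02% of all genes did) and none was called. Their summed level was 405, 298 and 474 RPKM in wild-type striatum and 1200, 826 and 707 RPKM in R6/2 striatum, and 247 to 472 RPKM in cortex. R6/2 replicate 1 was the highest of the striatal libraries for 27 of the 40, and over all 11768 genes tested it was the highest of its own group in 3575. Irs4, an insulin receptor substrate, was at 0.0728, 0.00556 and 0.0603 RPKM in wild-type and 6.73, 0.590 and 0.391 in R6/2 striatum (interaction 6.48, SE 1.41, edgeR adjusted p = 0.0853). The hypothalamic factors Nkx2-1 and Nr5a1 and the vasopressin gene Avp had 0 counts in all R6/2 striatal libraries, 3 of the 40 (8 in wild-type striatum). Thalamic markers summed to 46.7, 46.6 and 37.4 RPKM in wild-type and 132, 75.9 and 50.6 RPKM in R6/2 striatum, with 13 of 16 tested above 0 (median 0.88). Slc17a6, the subcortical glutamate transporter, went from 1.10, 2.46 and 0.315 to 25.7, 16.4 and 5.81 RPKM (interaction 3.69, SE 0.88, edgeR adjusted p = 0.122), and Calb2 from 1.94, 3.88 and 1.77 to 37.9, 15.6 and 5.75 RPKM (interaction 2.88, adjusted p = 0.312). These were among the 4 of 20 matched thalamic markers that were higher in all R6/2 than in all wild-type striatal libraries. Ramp3 went the other way without overlap, from 3.69, 5.40 and 3.01 to 1.06, 0.773 and 1.64 RPKM, and the other thalamic markers overlapped. Without replicate 1 of R6/2 striatum, the hypothalamic median was 0.66, the thalamic 0.51, the neuropeptide 0.65 and the GABA and glycine receptor median 0.26. Of the 33 calls 17 were also made without that library. The part of these regions in the called genes was not tested.

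Glial lists had medians on either side of 0. Myelin and oligodendrocyte markers had a median interaction of -0.24 (13 of 20 below 0), between -0.55 and 0.12 when any library was left out. Oligodendrocyte precursor markers had -0.28 (6 of 10 below 0). Astrocyte markers had a median interaction of 0.36 (18 of 23 above 0; 0.16 without wild-type cortex replicate 3), with Gfap at -0.28 (SE 0.78), and microglia -0.03 over 21 genes. The median genotype effect of the astrocyte markers was -0.44 in striatum and -0.76 in cortex. In striatum 4 of the 23 fell and 1 rose, where 5.58% of all genes tested fell and 3.02% rose. Choroid plexus and ependyma markers were all below 0 (6 of 6, median -1.29), and the median stayed between -1.62 and -0.96 when any library was left out. Their median genotype effect was -0.71 in striatum and 0.45 in cortex. Apart from that, 1 cortical library, R6/2 replicate 3, summed to 140 RPKM beside 8.04 to 15.7 RPKM in the other cortical libraries. It was led by Ttr, at 4.29, 7.42 and 131 RPKM in R6/2 cortex.

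The genotype and tissue labels matched their markers. At 12 weeks Gm12695, the gene at the transgene's insertion site, was counted 24 to 147 times per R6/2 library and 2 times in all wild-type libraries together, and mouse Htt did not pass (-0.81, SE 0.36, edgeR adjusted p = 0.481). Shared projection neuron markers summed to at least 5685 RPKM in wild-type striatum and at most 1196 RPKM in wild-type cortex. Depth ran from 12863515 to 47684796 counts in genes, and replicate pairs differed by 22.3 to 208 times counting noise. The 2 deepest libraries, R6/2 cortex replicate 2 and R6/2 striatum replicate 3, were deposited with other gene lengths than the rest. Without both, 25 genes were called, 18 of them among the 33. The cortical and striatal libraries of 12 weeks carry title numbers from separate ranges with none in common. Whether they mark separate sets of mice is not stated, so tissue and set cannot be told apart. Nothing in the labels says that the 3 libraries of a group were separate mice, and p-values then measure the spread between these libraries, which may be technical.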

How the data were processed

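The labels describe poly(A) RNA, a strand-marking paired-end library and reads from a Genome Analyzer or HiSeq. The authors deposited whole-number read counts, gene lengths and RPKM values per Entrez gene for each library, in files without a header, so the units were read from the values. The submitters' processing notes name Bowtie, DESeq and mm9. No source used here gives the counting program or its strand setting, so overlapping and near-identical genes are uncertain. Counts were tested with edgeR 4.0.16 in R 4.3.3 (quasi-likelihood test, TMM factors, 4 group means, Benjamini-Hochberg threshold 0.05). Levels are the deposited RPKM. Genes under a mean of 0.5 RPKM over the 12 libraries were left out: Hdx, at 0.501, was the lowest kept, and Kif23, at 0.4998, the highest left out. Alternatives used DESeq2 1.42.0, limma 3.58.1, other scalings, other minimums and leaving out each library. The scripts were tested on simulated data. RefSeq's gene table (GRCm38.p6) named 18594 of 18669 Entrez IDs, and the other symbols came from the deposited tables, and 12 deposited columns of no sample were not used. The text names, in each direction, the 10 called genes of smallest p and the 5 of largest difference, up to 4 called members per list, and a fixed set of genes, whatever their result. Other list members named fall outside these rules and were picked after their values were seen. Glra2, Grm5, Adcyap1, Ngef, Ramp3 and Ttr are among them. Of 888 list entries 852 were matched. The members and the lists were chosen with earlier results of these data known. Confidence intervals cover counting error only. The replicate numbers in the titles are not shared between tissues at 12 weeks. At 8 weeks the correlations of same-numbered pairs were -0.034, 0.079, 0.292 and 0.418, so no block was used.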

Additional observations from a re-analysis of the deposited data

Results flagged for a closer look

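The effects of the genotype in striatum and cortex differed by the interaction test for the 22 genes ranked first by p or by size in either direction, at an edgeR adjusted p under 0.05. The interaction of the 12 higher ones was 4.80 for Tafa1, 3.40 for Grik1, 1.83 for Gng4, 2.47 for Rasgrf2, 2.98 for Tmem200a, 1.70 for Ccnd1, 2.35 for Ndst3, 6.46 for Mab21l1, 2.32 for Syt17, 2.06 for Camk2d, 4.15 for Tmem215 and 4.76 for Cbln4. The interaction of the 10 lower ones was -2.40 for Adcy5, -1.81 for Strn, -1.82 for Chrm4, -1.84 for Tbc1d16, -2.18 for Tbc1d8, -2.89 for Krt9, -1.24 for Calcoco1, -2.54 for Onecut2, -2.10 for Slc22a3 and -1.68 for Arpp21. R6/2 striatum replicate 1 was the highest of its group in 12 and the lowest in 10 of the 23 higher genes, and the lowest in 9 of the 10 lower ones, while over all 11768 genes it was the highest in 3575 and the lowest in 6168.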

How the results depend on the processing

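All 33 called genes kept their direction under every alternative in which they had a value. The alternatives reuse the libraries from which these genes were picked, so this is a description and no independent support. Against 33 calls, DESeq2 made 187 and the fit with the GC and length trend removed made 126, and each of these held all 33. The fit over all 24 libraries made 0 (923 at an unadjusted p under 0.05), the authors' library totals 13, limma with a pseudocount of 0.5 or of 0.1 made 1, and limma-voom with a weight per tissue, chosen after seeing the data, made 6. RLE size factors made 33 (32 shared), a minimum of 2 RPKM 29 and no minimum 42. Leaving out a library gave 1 to 79 calls: 5, 2 and 1 without R6/2 cortex 1, 2 and 3, 21, 1 and 79 without R6/2 striatum 1, 2 and 3, 1 without any wild-type cortical library, and 76, 25 and 1 without wild-type striatum 1, 2 and 3. The cause was not tested. The striatum effect passed for 299 genes when fitted alone, 1527 with the GC and length trend removed and 631 to 1288 without 1 library. The cortex effect passed for 490 fitted alone, 124 with that trend removed, 8 without both libraries of shorter gene lengths (added after seeing the data) and 1 to 13 without 1 library. DESeq2 called 2 genes for the age difference and 312 genes at least 4-fold different between the wild-type tissues at 8 weeks, against 198.

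Among genes not called, the interaction changed sign in some of the fits without 1 library. It ran from -0.612 to 0.263 for Tac1 (above 0 without R6/2 cortex 1), from -0.0903 to 0.786 for Npy (below 0 without R6/2 striatum 3) and from -0.127 to 0.542 for Camk2a (below 0 without R6/2 striatum 3). For Gfap it ran from -1.62 to 0.113 (above 0 without R6/2 striatum 1 or 3 or wild-type striatum 1). Without both libraries of shorter gene lengths it was -0.148 for Camk2a and 0.185 for Gfap.

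With the title number as a block, the 8-week interaction called 0 genes, as without it (356 and 432 at an unadjusted p under 0.05). Not every library correlated best with the library of the other tissue that carried its title number.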
